A study of Mus musculus with 73 samples.

Results

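A set of 951 FoxA binding sites of mouse liver was described: sites of intermediate DNA methylation in control hepatocytes that appear in the authors' deposited list of sites hyper-methylated without Foxa1 and Foxa2. Members were chosen by their levels in whole-genome bisulfite sequencing (WGBS): a site was taken when the mean of its control libraries was at least 20% and below 40%. The 951 sites made up 35.2% of the list and 2.86% of the 33302 FoxA sites measured; the list also holds 1061 sites with a control level below 20% and 693 at or above 40%. They merged into 866 separate regions, of which 784 held a single site, so most sites can be read as separate places in the genome. The name of the set was checked against the files: the list held exactly the sites whose mean level was more than 20 percentage points higher in the developmental nulls than in the controls, and 0 sites past that margin were missing from it.

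Foxa1 and Foxa2 encode forkhead transcription factors called pioneer factors, because they can bind their motif in compacted chromatin and open it for other factors. They are needed for the liver to form, and in hepatocytes they occupy enhancers of liver genes. Cytosines followed by guanine are methylated over most of a mammalian genome, and enhancers that come into use in a tissue lose that methylation while their factors bind. A level between the extremes is an average over the DNA molecules of a sample, so fewer cells with a demethylated site and partial demethylation within each cell cannot be told apart.

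All WGBS and HNF6 libraries came from mice homozygous for Foxa1 and Foxa2 alleles that Cre recombinase removes (Foxa1L/L;2L/L), and the groups differed in the source of Cre. The developmental nulls carried the Alfp Cre transgene, which acts in liver cells while the organ forms. The adult nulls received, at 8 weeks of age, the viral vector AAV8 with Cre under the Tbg promoter, which is active in hepatocytes, and were studied 1 month later. The controls had no Cre. Developmental nulls and controls were 8 weeks old, so the adult nulls were studied at an age 1 month older, and this gap in age cannot be told apart from adult loss. WGBS was made from purified hepatocytes with 2 libraries for each of these groups. Reduced representation bisulfite sequencing (RRBS), which reads DNA fragments rich in CpG, was labelled as liver, with hepatocyte DNA named in the protocol. It covered 27 libraries. Developmental double nulls and controls formed an age series with 1 library of each at 20 days, 8 weeks, 4 months and 6 months. FoxA1L/L;FoxA2L/+ livers depleted in development, which keep 1 Foxa2 allele, and FoxA1L/+;FoxA2L/+ livers depleted in development had 2 libraries each at 8 weeks. Adult triple nulls, which lacked Foxa3 as well, had 3 libraries on day 7 after Cre induction (9 weeks of age) and 2 on day 13 (12 weeks of age). Their controls, labelled FoxA1L/L;FoxA2L;L;FoxA3-/-, also lacked Foxa3, received GFP in place of Cre and had 3 and 2 libraries. Adult double nulls after partial hepatectomy (3 libraries, 12 weeks of age) were set against livers with AAV GFP and the same operation (2 libraries, 12 weeks of age). HNF6 was mapped in 2 developmental null, 2 adult null and 3 control libraries. The sources used here do not say whether libraries of a group came from separate animals, so p-values measure the spread between libraries, which may be technical. The assays hold no transcripts, so the labelled cell type was not checked against marker genes.

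No coverage accompanied the methylation levels, so the number of reads behind each one cannot be given. Between 445198 and 622668 of the 817277 RRBS tiles, each of 100 bp, had a value in a library. A feature of the age series touches results below. At 106124 tiles outside FoxA sites with levels under 10%, developmental nulls and controls of the age series averaged 3.79% and 3.69%, against 1.31% to 1.71% in the 8 other RRBS groups.

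The developmental null levels of the 951 sites took part in choosing them and are given as a description only. The sites averaged 61.4% and 61.6% in the 2 developmental null libraries, and 27.6% and 31.1% in the 2 control libraries. The gain had a median of 29.4 points and reached 70.4 points. At 489 sites (51.4%) it lay between 20 and 30 points, at 254 between 30 and 40 points, and at 208 above 40 points. Few sites approached full methylation in the developmental nulls: 69 had a mean of at least 80%, 735 lay from 50% to below 80%, and 147 were below 50%. Control 2 was above control 1 at 630 sites (66.2%), and single controls strayed from the band the mean defines. Control 1 was below 20% at 144 sites and at or above 40% at 52, and control 2 was below 20% at 56 and at or above 40% at 134.

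The 3 largest gains ended near full methylation. A site on chromosome 11 (mm9, 31001122 to 31001521) had 97.0% and 94.7% in developmental nulls, 6.25% and 54.8% in adult nulls, and 40.6% and 10.2% in controls. Its adult null and control libraries each disagreed within their group, so it gave no stable adult value. A site on chromosome 4 (95692646 to 95693045) had 92.9% and 92.5% in developmental nulls, 16.8% and 22.6% in adult nulls, and 18.4% and 29.2% in controls. A site on chromosome 5 (31984675 to 31985074) had 93.3% and 100.0% in developmental nulls, 41.0% and 47.1% in adult nulls, and 25.0% and 31.2% in controls. At this last site both adult nulls lay above both controls, and both stayed far below the developmental nulls.

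The limits of the set cut through a continuous range. Just inside the lower limit were sites on chromosome 18 (12713704 to 12714103) and chromosome 9 (65655245 to 65655644), with control means of 20.0% for each. Listed sites just outside it, on chromosome 6 (7802791 to 7803190) and chromosome 8 (64047884 to 64048283), both had control means of 19.9%. Just inside the upper limit were sites on chromosome 5 (148271454 to 148271853) and chromosome 11 (79382098 to 79382497), both with 39.98%, written to 4 digits to separate them from 40%. Listed sites on chromosome 9 (66524446 to 66524845) and chromosome 3 (97566239 to 97566638) had 40% and 40.02% and fell outside. The members nearest to the margin of the list, on chromosome 16 (43234869 to 43235268) and chromosome 9 (61968078 to 61968477), had gains of 20.0 and 20.1 points.

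Members were found on each autosome, with 28 (chromosome 17) to 85 (chromosome 1) members per chromosome. These were 2.12% (chromosome 12) to 3.63% (chromosome 1) of the FoxA sites of a chromosome. Another FoxA site lay within 2000 bp of 480 members (50.5%), against 54.2% of all FoxA sites. Within the control band the share of FoxA sites that were members was 16.3% at control levels of 20% to 25%, 17.3% at 25% to 30%, 18.5% at 30% to 35% and 20.0% at 35% to 40%. Median developmental null levels in these bins were 53.8%, 57.0%, 60.5% and 66.7%. The median gain in these bins lay between 27.6 and 31.5 points. All of these values entered the choice of members.

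The adult nulls ask whether the same sites are methylated when Foxa1 and Foxa2 are lost after the liver has formed. Of the 951 members, 793 had adult values; the other 158 lie on chromosomes 1 and 2, which the deposited adult table does not cover. These 793 sites averaged 61.5% and 61.5% in developmental nulls, 31.0% and 31.1% in adult nulls, and 27.7% and 31.1% in controls. Group means were 61.5 ± 0.0401% for developmental nulls, 31.1 ± 0.0917% for adult nulls and 29.4 ± 2.44% for controls (SD, n = 2 libraries each). The adult null mean exceeded the control mean by 1.65 points, less than the SD of the controls, and both adult nulls lay between the 2 controls.

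**Figure D1:**
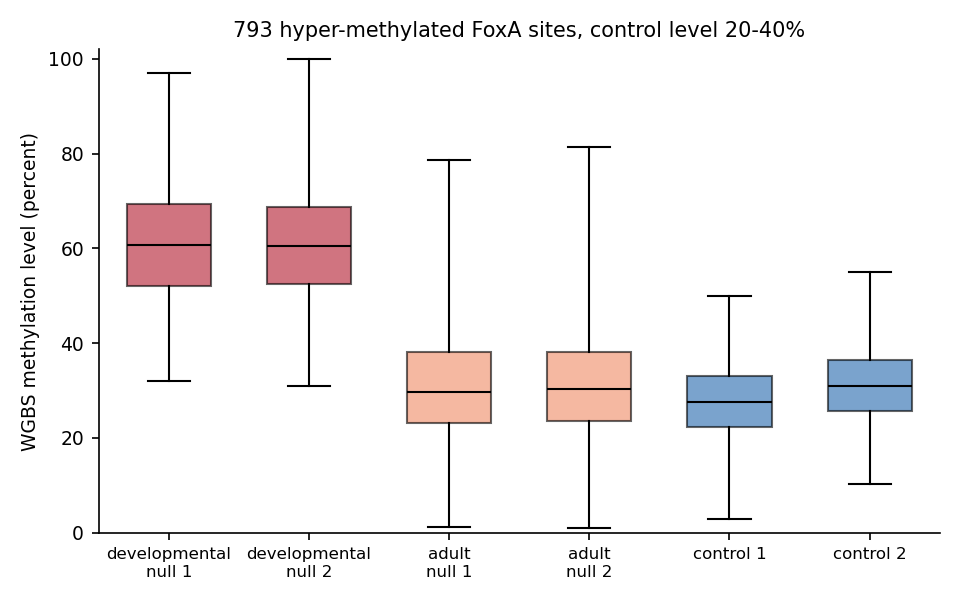
WGBS methylation level (percent, vertical axis) of the 793 members with adult values in 6 libraries; boxes span the quartiles, lines mark medians and whiskers reach the lowest and highest site. Medians are 60.6% in both developmental nulls, 29.7% and 30.3% in adult nulls, and 27.6% and 30.9% in controls.

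Across single sites the adult null minus control difference had a median of 1.30 points, with quartiles at −3.49 and 6.58 points, and ran from −23.1 to 48.5 points. The difference was positive at 453 sites and negative at 340, and at 627 sites (79.1%) it was within 10 points of 0. Single libraries of 1 group also differed at a site: the median gap was 5.41 points between the 2 adult nulls and 6.54 points between the 2 controls. Adult null means stayed within 20% to 40% at 539 sites, were below 20% at 106 and reached 40% at 148. An adult gain of more than 20 points, the margin that defines the list for developmental loss, was found at 14 members (1.77%), against 0.22% of all 28654 sites with adult values. It was found at 1.44% of listed sites with control levels below 20% and 2.45% of those at or above 40%. The share was thus not particular to this control band. Those classes had mean adult differences of 1.54 and 2.63 points, against 1.65 points for members. An adult loss of more than 20 points was found at 2 members (0.252%), against 0.408% of all sites. Both adult nulls were above both controls at 189 of the 793 members (23.8%), against 10.2% of all sites. They were below both at 116 of the 793, a smaller share than the 28% of all sites. The controls entered the rule that chose the members, so these counts are not independent of the choice.

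No member passed the test of adult null minus control. With limma's moderated test on the percent scale, fitted to the 28654 sites in 6 libraries with Benjamini-Hochberg adjustment, 0 members were called higher and 0 lower, against 0% of all sites, and the smallest adjusted p of a member was 0.307. At an unadjusted p under 0.05, 64 of the 793 members were higher, against 1.53% of all sites, and 24 of the 793 were lower, against 6.5%. Both directions together made 11.1% of members, against 8.02% of all sites. The controls entered the choice of members, so these counts are not independent of it. When only sites with a mean level of 5% to 95% were tested, 1 member was called higher, the chromosome 17 site described next.

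Unlisted sites with the same control level of 20% to 40% (3778 with adult values) went slightly the other way. They averaged 26.5 ± 0.0952% in adult nulls and 28.8 ± 1.62% in controls, a difference of −2.28 points. The median difference was 1.30 points for members, −2.20 points for these unlisted sites and −1.25 points for all sites. Unlisted sites were chosen as those without a large developmental gain relative to the same controls, so both classes share libraries with the choice of members and were given no test.

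**Figure D2:**
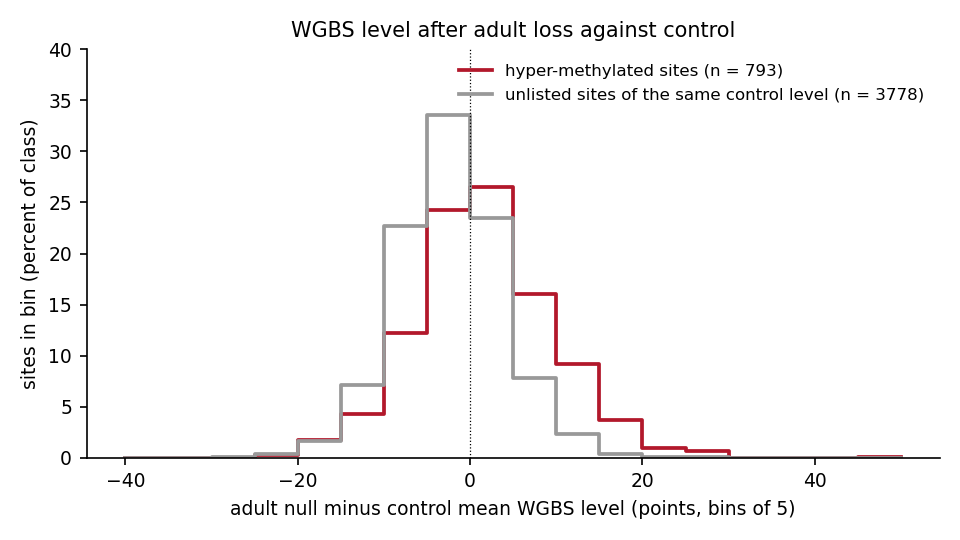
Share of sites (percent of each class, vertical axis) by adult null minus control WGBS level (percentage points in bins of 5, horizontal axis) for 793 members and 3778 unlisted sites of the same control level. Both distributions centre near 0, with medians of 1.30 points for members and −2.20 points for unlisted sites, and 14 members lie above 20 points.

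The member with the highest adult gain was a site on chromosome 17 (46955450 to 46955849). It had 83.5% and 80.8% in developmental nulls, 78.7% and 81.3% in adult nulls, and 37.6% and 25.6% in controls. Its adult gain of 48.5 points (adjusted p = 0.307 by limma) was close to its developmental gain of 50.6 points, which set it apart from the other members by size. The next member was on chromosome 14 (61725244 to 61725643), with 78.2% and 62.6% in developmental nulls, 58.3% and 42.8% in adult nulls, and 23.6% and 21.3% in controls. The third was on chromosome 12 (109578160 to 109578559), with 52.0% and 54.9% in adult nulls, and 9.80% and 43.0% in controls. The fourth was on chromosome 7 (107772524 to 107772923), with 58.1% and 48.5% in adult nulls, and 38.1% and 15.4% in controls. In both of these last sites the controls differed from each other by more than 20 points, so their gains of 27.1 and 26.5 points depend on which control is used. Of the 14 members with an adult gain over 20 points, 13 had both adult nulls above both controls, which largely follows from picking them by that gain. All 14 had an adult mean below their developmental null mean. This was no trait of these 14, since 0 of the 793 members had an adult mean above it.

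At the other end, a site on chromosome 7 (38985277 to 38985676) had 1.20% and 0.922% in adult nulls, and 2.96% and 45.3% in controls. Its difference of −23.1 points came from control 2 alone, since control 1 was nearly as low as the adult nulls. A site on chromosome 8 (37515357 to 37515756) had 20.0% and 4.55% in adult nulls, and 36.7% and 32.9% in controls. A site on chromosome 19 (21569060 to 21569459) had 7.32% and 7.89% in adult nulls, and 22.2% and 32.5% in controls. Another on chromosome 8 (84976724 to 84977123) had 17.1% and 14.3% in adult nulls, and 20.0% and 50.0% in controls. In all 4 of these sites both adult nulls lay below both controls, which largely follows from picking them as the lowest. Each had gained 22.1 to 45.0 points in the developmental nulls, and such a gain is part of the choice of every member.

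RRBS gives a second measurement that the rule did not use. It reaches few of these sites: 81 of 951 members (8.52%) held the middle of a tile in the deposited table, against 16.4% of all FoxA sites, 9.80% of listed sites with control levels below 20% and 6.78% of listed sites at or above 40%. The 118 member tiles include 107 with a value in at least 1 library and 41 with a value in all 27. Results from RRBS therefore describe the CpG-rich minority of the set.

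In the age series the member tiles were more methylated in developmental nulls, as they were in WGBS. Averaged over the 45 member tiles with a value in all 8 libraries (in 32 sites), developmental nulls had 59.2%, 58.0%, 48.6% and 52.8% at 20 days, 8 weeks, 4 months and 6 months, and controls had 48.2%, 31.8%, 27.1% and 25.6%. The 20-day control stood apart from the 3 older ones, and its mean lay just below that of the lowest developmental null. Group means were 54.7 ± 4.89% in developmental nulls and 33.2 ± 10.3% in controls (SD, n = 4 each), a difference of 21.5 points. At single tiles 44 of 45 differences were above 0, with a median of 20.3 points, against 0.280 points over all 369462 tiles tested.

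With limma's moderated test over all tiles (Benjamini-Hochberg, spread from all 27 libraries), 8 of 45 member tiles (17.8%) were called higher in developmental nulls, against 0.176% of all tiles. No member tile was called lower, against 0.0625% of all tiles. At an unadjusted p under 0.05, 32 member tiles were higher and 0 lower, against 32390 of all 369462 tiles in either direction. All 4 developmental nulls were above all 4 controls at 13 of the 45 member tiles, against 1.93% of all tiles, and below at 0, against 0.978%. The count depends on single libraries: it was 15 without the 20-day control, 5 without the 4-month control, 3 without the 6-month control, 5 without the 8-week control and 5 without the 6-month developmental null. With the spread taken from the 8 libraries of the comparison alone it was 0, and with age as a block it was 13. The mean difference kept its direction in each of these, with a range of 18.9 to 26.5 points. Tiles in unlisted sites of the same control level averaged 28.3 ± 4.71% in developmental nulls and 24.5 ± 6.00% in controls. Their difference was 3.74 points, and 3 of 339 (0.885%) were called higher. Tiles of listed sites below the control band differed by 19.0 points, and 14 of 57 (24.6%) were called higher. Tiles of listed sites at or above the upper limit of the band differed by 22.1 points, with 2 of 25 (8%) called higher. The gain was thus not particular to this control band.

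**Figure D3:**
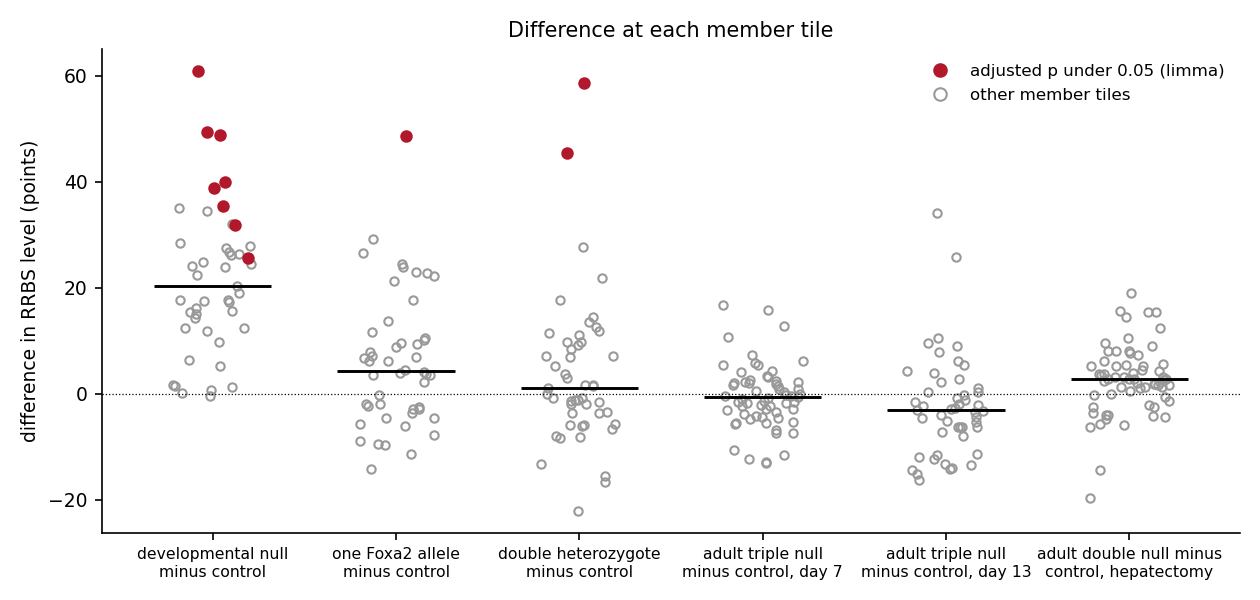
Difference in RRBS level (percentage points, vertical axis) at each member tile in 6 comparisons (horizontal axis, each group minus the control named there); filled points passed limma's adjusted p of 0.05 and horizontal bars are medians. The median is 20.3 points for developmental nulls and between −3.01 and 4.33 points in the 5 other comparisons.

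The called tiles were of several kinds. A tile on chromosome 4 (57083501 to 57083600) was the steadiest. Its group means were 77.1 ± 7.45% in developmental nulls and 38.3 ± 5.39% in controls (SD, n = 4 each), a gain of 38.9 points (SE 6.37, adjusted p = 0.00892 by limma). The lowest developmental null lay well above the highest control of 44.6%. After adult loss it had 34.6%, 43.8% and 39.3% in day 7 triple nulls, and 43.8%, 25.0% and 42.9% in their controls. On day 13 it had 40.6% and 30.8% in triple nulls, and 31.8% and 37.5% in controls. After hepatectomy it had 37.5%, 59.1% and 52.8% in adult double nulls, and 38.3% and 32.1% in controls. The groups overlapped in all 3 of these comparisons, and none passed the test (adjusted p = 1 in each by limma), although the mean after hepatectomy was 14.6 points higher in the nulls.

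Tiles on chromosome 12 (81006101 to 81006200) and chromosome 9 (72932001 to 72932100) had low levels in controls, at or below 6.52% on chromosome 12 and in 3 of 4 controls on chromosome 9, although the site around each had a WGBS control level inside the band. On chromosome 12 developmental nulls had 45.2%, 24.2%, 19.0% and 27.3% at 20 days, 8 weeks, 4 months and 6 months, and controls had 3.23%, 3.70%, 0% and 6.52%. The gain of 25.6 points (adjusted p = 0.00174 by limma) was present at each age, and the 20-day control was as low as the older ones. On chromosome 9 developmental nulls had 50.0%, 33.3%, 33.3% and 44.4%, and controls had 6.25%, 20.0%, 4.17% and 3.33%, a gain of 31.8 points (adjusted p = 0.0017 by limma). Developmental nulls and controls did not overlap at either tile.

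Another site on chromosome 9 (70169855 to 70170254) showed how unevenly the change can be spread over 400 bp. Its 3 tiles, 100 bp apart, averaged 20.7%, 80.8% and 97.1% in developmental nulls, and 8.32%, 32.1% and 97.5% in controls. The middle tile (70170101 to 70170200) was the called one, with a gain of 48.8 points (adjusted p = 0.0234 by limma), while the last was almost fully methylated in both groups. In the middle tile the 20-day control had 74.0%, against 15.1%, 24.5% and 14.6% at 8 weeks, 4 months and 6 months. The WGBS level of the whole site was 63.1% and 75.6% in developmental nulls, 41.6% and 43.0% in adult nulls, and 38.3% and 33.7% in controls.

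The highest gain was at a tile on chromosome 8 (64024101 to 64024200), with 87.5%, 91.7%, 96.3% and 100.0% in developmental nulls at 20 days, 8 weeks, 4 months and 6 months, and 77.8%, 43.8%, 10.5% and 0% in controls. The gain of 60.9 points (SE 11.3, adjusted p = 0.0243 by limma) thus averaged over controls that covered most of the scale. Foxa3-null controls on day 7 were also high here, with 63.6%, 73.3% and 62.6%, while hepatectomy controls had 34.95% and 18.75%. The remaining called tiles were on chromosome 4 (117015401 to 117015500), chromosome 6 (115755901 to 115756000) and chromosome 12 (103893401 to 103893500). Their gains were 49.3, 39.99 and 35.5 points, with adjusted p of 0.0358, 0.0343 and 0.0195 by limma. The chromosome 4 and chromosome 12 tiles overlapped between the groups through their 20-day controls, at 55.4% and 50.8%.

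Median gains were compared by the position of a tile within its site and by its starting level. The median gain was 23.2 points for the 20 tiles within 100 bp of a site's middle (2 called) and 17.7 points for the 25 tiles farther out (6 called). It was 17.7 points for 14 tiles with a control level below 20% (4 called), 24.5 points for 19 tiles at 20% to 40% (4 called), and 17.7 points for 12 tiles at or above 40% (0 called). The highest gain was 49.3 points in the lowest of these bins, 60.9 points in the middle one and 27.8 points at or above 40%. The control mean that sets the bin also enters the gain, and a high level leaves less room to rise. No relation between starting level and gain can therefore be read from these bins. A tile's control level and its site's WGBS control level correlated weakly (r = 0.270, rho = 0.237 over 45 tiles, some from the same site), so a single tile stands only loosely for its site. The site with the most complete tiles, on chromosome 1 (161973618 to 161974017), showed the same spread. Its 3 tiles averaged 90.2%, 36.1% and 40.3% in developmental nulls, and 89.4%, 23.7% and 39.0% in controls, while its WGBS level was 67.3% and 56.5% in developmental nulls, and 34.2% and 42.1% in controls.

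Age could be followed over the 41 member tiles with values in all 27 libraries. Developmental nulls had 60.1%, 57.5%, 47.6% and 51.3% at 20 days, 8 weeks, 4 months and 6 months, and controls had 49.5%, 32.3%, 28.7% and 26.7%. The difference was 10.6, 25.2, 18.9 and 24.6 points at these ages, and 30, 37, 34 and 35 of the 41 tiles were higher in the developmental null. Between 20 days and 6 months the level was lower by 8.79 points in developmental nulls (25 of 41 tiles lower) and by 22.9 points in controls (34 of 41 tiles lower). Each age had 1 library per group, so these changes have no replicate check.

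**Figure D4:**
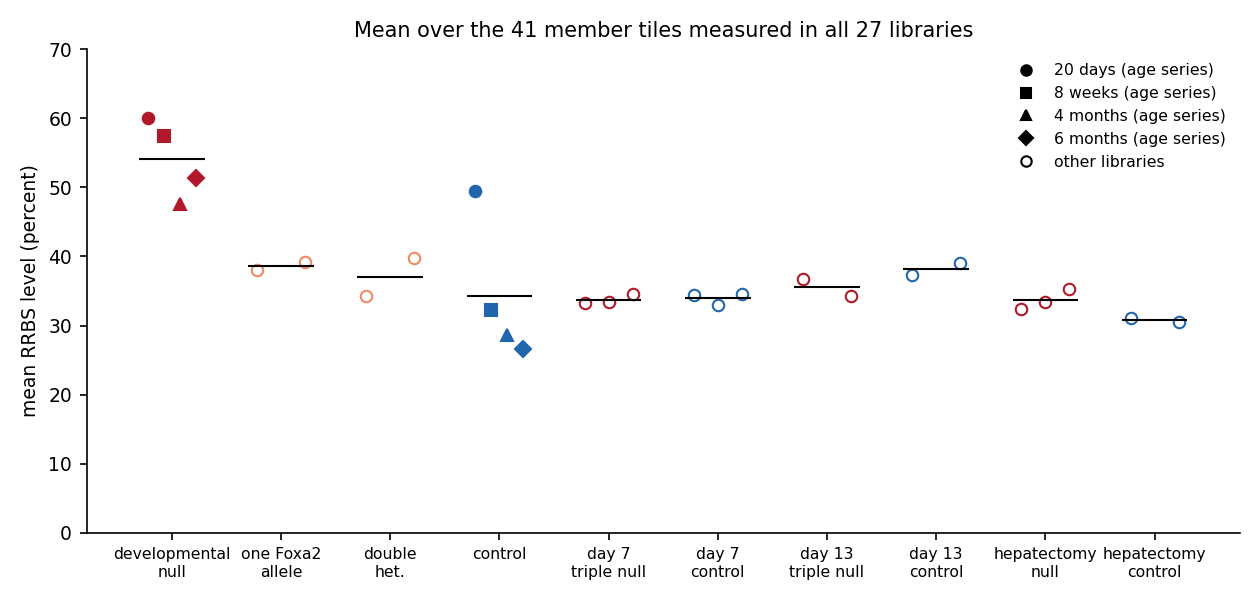
Mean RRBS level (percent, vertical axis) over the 41 member tiles measured in all 27 libraries, 1 point per library, by group; bars are group means and symbols give age in the age series. The 4 developmental nulls lie at 47.6% to 60.1%, the 20-day control at 49.5%, and the other 22 libraries at 26.7% to 39.8%.

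Member tiles lay near their controls after adult loss of Foxa1 and Foxa2 in mice that also lacked Foxa3. On day 7 the 62 member tiles tested averaged 32.5%, 31.4% and 32.6% in triple nulls, and 33.2%, 31.5% and 33.3% in their controls. The groups overlapped, with means of 32.2 ± 0.693% and 32.7 ± 1.02% (SD, n = 3 each), a difference of −0.524 points. With limma 0 member tiles were called higher and 0 lower, against 0.00125% and 0.00291% of 480615 tiles. An unadjusted p under 0.05 was found at 0 member tiles, against 19703 of the 480615 tiles. All triple nulls were above all controls at 2 of the 62 member tiles, against 5.11% of all tiles, and below at 4 of the 62, against 4.55%.

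On day 13 the 49 member tiles averaged 34.1% and 31.8% in triple nulls, and 34.9% and 35.7% in controls. Both triple nulls were below both controls, with means of 33.0 ± 1.65% and 35.3 ± 0.574% (SD, n = 2 each), a difference of −2.29 points. No member tile was called in either direction, against 0.00271% higher and 0.00475% lower among 442000 tiles. At an unadjusted p under 0.05 there were 0 higher and 2 lower, against 20675 of the 442000 tiles in either direction. The triple nulls lay below both controls at 16 of the 49 member tiles, a larger share than the 15.6% of all tiles. They lay above both controls at 3 of the 49, a smaller share than the 12.9% of all tiles. Tiles of unlisted sites with the same control level differed by −2.05 points, close to the members.

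After partial hepatectomy, in which hepatocytes divide as the liver regrows, the 64 member tiles averaged 28.9%, 29.3% and 31.8% in adult double nulls, and 28.7% and 25.8% in controls. All 3 nulls lay above both controls, the nearest by a fraction of a point, with means of 30.0 ± 1.55% (SD, n = 3) and 27.3 ± 2.08% (SD, n = 2), a difference of 2.741 points. No member tile was called, against 0.00104% higher and 0.000828% lower among 482859 tiles. At an unadjusted p under 0.05 there were 0 higher and 1 lower, against 22529 of the 482859 tiles in either direction. Nulls lay above both controls at 7 of the 64 member tiles, against 8.69% of all tiles, and below at 3 of the 64, against 9%.

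The 42 tiles tested in the developmental and all 3 adult comparisons allow the same tiles to be read side by side. Their mean difference was 20.1 points for developmental loss, −0.287 points on day 7, −2.90 points on day 13 and 2.80 points after hepatectomy. A gain above 20 points was found at 20 of the 42 tiles for developmental loss, at 0 on day 7, at 1 on day 13 and at 0 after hepatectomy. The difference between the developmental change and each adult change was tested tile by tile in the same limma fit, a comparison added after the data were seen. Its median over member tiles was 19.5 points against day 7, 22.8 points against day 13 and 17.1 points against hepatectomy. No member tile passed the adjusted threshold in any of the 3, against 0.0111%, 0.00624% and 0.00276% of all tiles called higher and 0.00139%, 0.000567% and 0.000276% called lower. At an unadjusted p under 0.05 there were 19 of 45, 21 of 42 and 16 of 45 member tiles higher and 0 lower. Over all tiles 19159 of 360663, 19603 of 352757 and 19381 of 362766 had such a p in either direction. Members were chosen for a developmental gain in WGBS, and the developmental change is part of each of these contrasts. The 3 tests share the age-series libraries. Leaving out single libraries raised the counts past the adjusted threshold to at most 3, against day 7 without the 20-day control.

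Livers that kept some Foxa alleles after developmental depletion lay within the range of the age-series controls only through the 20-day control. They lay above all of the older controls, among them the control of their own age. With 1 Foxa2 allele left, the 48 member tiles averaged 39.98% and 39.998%, and the controls of the age series 48.7%, 32.01%, 27.5% and 26.7% at 20 days, 8 weeks, 4 months and 6 months. The means were 39.99 ± 0.0109% (SD, n = 2) and 33.7 ± 10.3% (SD, n = 4). The difference of 6.27 points lies within the spread of the controls, which includes the 20-day control at 48.7%. Double heterozygotes had 34.4% and 39.95% over 49 tiles, and the controls averaged 33.5 ± 10.8%, a difference of 3.68 points. Set against the 8-week control alone, at 32.01% and 31.4% for these tiles, both groups were higher in both of their libraries. Leaving out 1 library gave differences of 3.91 to 11.3 points with 1 Foxa2 allele and 0.880 to 8.98 points for double heterozygotes. The highest value of each came without the 20-day control.

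For the 1-allele livers 1 of 48 member tiles was called higher, against 0.106% of all tiles, and for double heterozygotes 2 of 49, against 0.12%. In both groups 0 were called lower, against 5.9% and 5.97%. The chromosome 8 tile at 64024101 was called in both. It had 84.6% and 78.6% in livers that kept 1 Foxa2 allele and 83.3% and 100.0% in double heterozygotes, set against the wide range of controls given above, with adjusted p of 0.0429 and 0.0171 by limma. The chromosome 6 tile at 115755901 was called in double heterozygotes, with 50.0% and 76.9%, against 27.3%, 11.8%, 33.3% and 0% in controls at 20 days, 8 weeks, 4 months and 6 months (adjusted p = 0.0101 by limma). Foxa3-null controls were at 42.9% to 44.0% at this tile on day 7, above the age-series controls. The call with 1 Foxa2 allele was lost without the 4-month, 6-month or 8-week control or either 1-allele library, and was 2 without the 20-day control. The double heterozygote count was 4 without the 20-day control, 1 without replicate 1 and 0 without replicate 2 of that group.

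Set against the developmental nulls, the same livers were lower. With 1 Foxa2 allele left the 47 member tiles averaged 38.9 ± 0.0173% (SD, n = 2), and developmental nulls 54.7 ± 4.80% (SD, n = 4), a difference of −15.8 points. Double heterozygotes averaged 36.29 ± 3.799% (SD, n = 2) and developmental nulls 53.8 ± 4.82% (SD, n = 4) over 48 tiles, a difference of −17.5 points. Every library of either group lay below every developmental null. For the 1-allele livers limma called 6 of 47 member tiles lower (12.8%, against 7.49% of all tiles). For double heterozygotes it called 9 of 48 lower (18.8%, against 7.56%). In each 0 were called higher, against 0.0953% and 0.103%. Among tiles of listed sites below the control band, 21 of 58 and 22 of 62 were called lower. In a class of FoxA-site tiles the counts were 561 of 4837 and 575 of 4893. They were 9 of 334 and 9 of 356 in unlisted sites of the same control level. Listed sites at or above the upper limit of the band had 1 of 27 and 2 of 27. An excess over all tiles was thus not particular to the members. The share called lower over all tiles is itself large. The age-series libraries stand above these groups at distant low tiles as given above. The part of that offset in the member counts was not tested. Median differences for member tiles were −13.8 and −16.9 points, against −1.88 and −1.80 points over all tiles. The counts of 6 and 9 became 3 and 4 without the 6-month developmental null, 1 and 0 without replicate 1 of the partial-loss group, and 3 and 4 without its replicate 2. All 4 comparisons of these livers reuse the age-series libraries and are not independent of each other.

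The 4 tiles called lower in both groups were picked by those calls, so their lower levels follow from the choice and are a description only. The chromosome 9 tile at 70170101 had 17.5% and 31.2% in livers that kept 1 allele of Foxa2, 17.5% and 35.3% in double heterozygotes, and 74.1% to 94.1% in developmental nulls. The chromosome 12 tile at 81006101 had 3.03% and 0% with 1 allele, 3.57% and 6.67% in double heterozygotes, and 19.0% to 45.2% in developmental nulls. The chromosome 4 tile at 57083501 had 45.8% and 50.0% with 1 allele, 25.0% and 50.0% in double heterozygotes, and at least 66.7% in developmental nulls. A tile on chromosome 19 (9181601 to 9181700) had 16.7% and 15.0% with 1 allele, 11.1% and 27.03% in double heterozygotes, and 43.5% to 50.0% in developmental nulls. At each of these tiles the partial losses lay below all 4 developmental nulls. They were not all at the control level: on chromosome 4 both 1-allele livers lay above the highest control of 44.6%, and on chromosome 9 the double heterozygote at 35.3% lay above the 3 older controls. Over all member tiles tested, 43 of 47 and 43 of 48 were lower than in developmental nulls, and 4 and 5 were higher. At the chromosome 8 tile at 64024101 the partial losses had 78.6% to 100%, and the developmental nulls 87.5% to 100%.

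HNF6, a homeodomain factor encoded by Onecut1 that acts in hepatocytes and bile ducts and binds near FoxA proteins in liver, was looked for at the members. Peaks were called by the authors for each library, with MACS 2.1.1 for developmental nulls and controls and MACS 1.4.3 for adult nulls, so shares from adult lists differ in caller as well as genotype. The lists hold 3122 and 1188 peaks in developmental nulls, 4028 and 5678 in adult nulls, and 5767, 4652 and 1770 in controls. A member counted as bound when a peak overlapped it by at least 1 bp.

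Few members carried a peak in any group. In developmental nulls 5 and 2 of the 951 members had a peak (0.526%, Wilson 95% interval 0.225% to 1.22%, and 0.210%, 0.0577% to 0.764%). In adult nulls 19 and 34 members had a peak (2.00%, 1.28% to 3.10%, and 3.58%, 2.57% to 4.95%). In controls 38, 31 and 7 members had a peak (4.00%, 2.92% to 5.44%, then 3.26%, 2.31% to 4.59%, and 0.736%, 0.357% to 1.51%). The third control list is the shortest of the controls, and its share overlaps the interval of the first developmental null. Intervals cover counting error only. In every list the share was lower than over all FoxA sites, which was 1.68% and 0.949% in developmental nulls, 6.17% and 8.56% in adult nulls, and 8.06%, 6.64% and 1.92% in controls. No list held a peak at 902 members (94.8%), against 92.1% of unlisted sites of the same control level and 89.2% of all sites. Listed sites with control levels below 20% and at or above 40% were close to the members, at 94.5% and 96.0%.

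**Figure D5:**
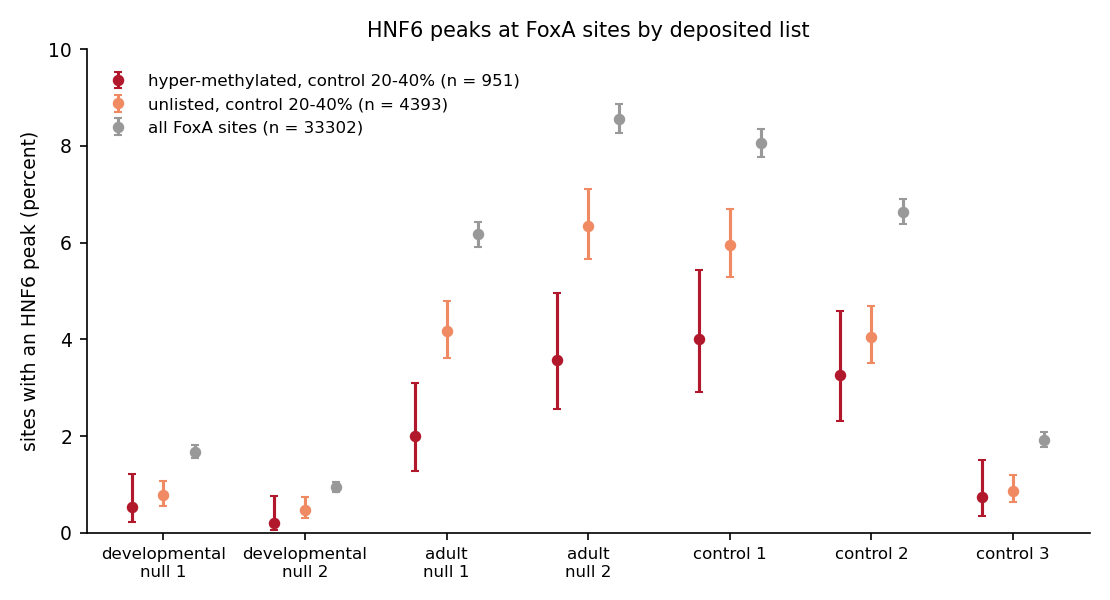
Share of sites with an HNF6 peak (percent, vertical axis) in each of 7 deposited lists for 951 members, 4393 unlisted sites of the same control level and 33302 FoxA sites; bars are Wilson 95% intervals. Members are the lowest of the 3 classes in each list, with at most 4.00%.

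A peak in at least 2 control lists was found at 28 members. Of these, 23 (82.1%) had no peak in a developmental null list, 3 had a peak in 1 and 2 in both, against 1354 (68.3%), 402 and 225 of the 1981 FoxA sites with a peak in at least 2 control lists. The same 28 members had no adult null peak in 4 cases, a peak in 1 adult list in 8 and in both in 16 (57.1%), against 179, 322 and 1480 (74.7%) of the 1981 sites. Peaks listed in controls were thus more often listed in adult than in developmental nulls over FoxA sites in general, and nothing particular to the members was tested. The developmental null lists are shorter than the adult ones, and the peaks differ in width, with medians of 87.5 and 82 bp in developmental nulls, 307 and 320 bp in adult nulls, and 150, 131 and 84 bp in controls. The 24 of them with adult WGBS values had a median adult null level of 23.1% and a median adult null minus control difference of −2.26 points. Members with no control peak had a median adult level of 30.4% and a median difference of 1.54 points over 756 sites.

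A peak in all 3 control lists was found at 7 members in 4 regions. In the region on chromosome 15 (site 82596146 to 82596545) peaks were listed in 0 developmental nulls and 2 adult nulls, and the WGBS level was 59.2% and 53.4% in developmental nulls, 37.6% and 35.7% in adult nulls, and 35.2% and 35.6% in controls. A second, overlapping member of that region has the same values. The third (82596356 to 82596755), named after its values were seen, had 52.0% and 51.3% in developmental nulls, 48.9% and 36.8% in adult nulls, and 14.3% and 29.0% in controls, and is 1 of the 14 members with an adult gain over 20 points. Members of 1 region thus differed in adult change. On chromosome 16 (93822953 to 93823352) all 7 lists held a peak, and the level was 47.1% and 40.9% in developmental nulls, 37.0% and 29.0% in adult nulls, and 14.8% and 25.8% in controls. On chromosome 18 (12713704 to 12714103) all 7 lists also held a peak, and the level was 40.9% and 47.7% in developmental nulls, 2.70% and 3.70% in adult nulls, and 25.0% and 15.0% in controls. These last sites are the 2 members with HNF6 peaks in every list, and their developmental null levels stayed below 50%. On chromosome 4 (76007649 to 76008048) peaks were listed in 1 developmental null and 2 adult nulls, and the level was 65.9% and 70.4% in developmental nulls, 9.43% and 19.2% in adult nulls, and 19.1% and 21.2% in controls.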

How the data were processed

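The authors deposited methylation as fractions from 0 to 1, 1 per FoxA site of 400 bp for WGBS and 1 per tile of 100 bp for RRBS. These fractions were multiplied by 100 to give percent. Trim Galore 0.3.3 and BSMAP 2.74 are named, with the mm9 build, in the submitters' processing notes. The step from reads to sites and tiles is not given in the sources used, and no file gives coverage, so depth is unknown and no interval of a level was made. HNF6 peaks were called per library with MACS 2.1.1 or MACS 1.4.3, per the file headers. The fold enrichment that the authors deposited per peak served only to pick the stronger peaks of each list. Site positions are printed from 1. The adult table shares control 1 with the developmental table at all 28654 common sites, and its column headed as developmental null 1 holds control 2, so the tables were joined on these sites.

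A tile belonged to a member when its middle lay inside the site. Differences were tested with limma 3.58.1 (R 4.3.3), applied to percent levels with a variance trend, 1 mean per group, Benjamini-Hochberg adjustment over all tiles or sites and a threshold of 0.05. Tiles had to be measured in all libraries of a comparison, and the spread came from all 27 RRBS or all 6 WGBS libraries. Shares have Wilson 95% intervals (scipy 1.17.1). The fits were also run on simulated data, with assumed levels and spreads for RRBS and without the day 13 comparison. The outcome is not used here. Members and comparisons were chosen with earlier results of these data known. Named were the sites with the highest and lowest adult differences, the largest developmental gains, HNF6 peaks in all 3 control lists, those at the limits, the site with most tiles, and the called tiles, with others chosen after their values were seen. The gene tables supplied were of GRCm38, so sites carry positions only. No sequences were read. Alternatives were another scale, a level filter, the spread of the compared groups, whole tiles, single libraries left out, age or replicate number as a block, and for HNF6 the overlap, stronger peaks and merged regions.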

Additional observations from a re-analysis of the deposited data

Results flagged for a closer look

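In 28 groups of 4 libraries checked at the tiles called in any comparison and at their mean, 2 held a library far from the others. Chance gives such a library in about 1 of 20 groups. At the chromosome 1 tile from 90318601 to 90318700 the 20-day developmental null had 47.7%, while the developmental nulls of 8 weeks, 4 months and 6 months had 80.7%, 76.6% and 81.4%. At the chromosome 9 tile from 70170101 to 70170200 the 20-day control had 74.0%, while the older controls had 15.1%, 24.5% and 14.6%.

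The mean change over member tiles ran in opposite directions in some comparisons, with no overlap between the libraries of each. It was 21.5 points for developmental loss over 45 tiles and −2.29 points for adult triple loss on day 13. The first separation was narrow, 48.6% in the lowest developmental null and 48.2% in the highest control, and over the 41 tiles with all libraries these overlapped, at 47.6% and 49.5%. It was 2.741 points for adult double loss after hepatectomy, against the same −2.29 points on day 13. These differences between means were not tested, and the groups differ in genotype, age and treatment.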

How the results depend on the processing

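Of 596 recomputed values, 517 stayed the same: single tiles and sites by direction and threshold, counts, shares and means within set limits. Counts that stayed at 0 are among these. A further 49 counts or shares moved, 29 single-tile calls lost the threshold and 1 single-site call gained it. Direction was checked for single tiles and sites only, and 0 of them reversed. All 81 recomputed mean differences moved by less than the spread between libraries. Leaving out 1 library gave mean differences of 18.9 to 26.5 points for developmental nulls, −1.11 to −0.125 on day 7, −3.45 to −1.12 on day 13 and 1.27 to 4.21 after hepatectomy. The WGBS adult difference ran from −0.0763 to 3.37 points, so its direction depends on which control is kept.

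Leaving out 1 library gave 3 to 15 member tiles higher in developmental nulls, 0 to 2 with 1 Foxa2 allele against control, 0 to 4 higher and 0 to 1 lower in double heterozygotes against control, 1 to 7 and 0 to 12 lower against developmental nulls, and 0 to 3, 0 to 1 and 0 for the differences from day 7, day 13 and hepatectomy. With the spread from the compared groups alone, developmental nulls, 1 Foxa2 allele and double heterozygotes had 0 calls against controls, as did the partial losses against developmental nulls. Under the level filter of 5% to 95% the counts were 0 and 1 higher against control, 2 and 4 lower against developmental nulls, 1 for the difference from day 13 and 1 for WGBS adult nulls. With whole tiles 0 and 1 were called against control. On the logit scale 0 were called with 1 Foxa2 allele and 1 was lower in double heterozygotes. Against the 8-week developmental null alone, 2 tiles were lower with 1 Foxa2 allele. The stronger part of each HNF6 list by fold gave 0% for developmental null 2, 1.89% for adult null 2 and 2.1% for control 2. The cause of these moves was not tested.

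The age series carries no replicate numbers. With age as a replicate block 13 member tiles were called in place of 8, and correlations of same-age deviations were 0.434, 0.184, 0.134 and 0.0735 at 20 days, 6 months, 4 months and 8 weeks. In the other comparisons same-numbered libraries correlated between −0.0413 and 0.0108, and the block changed no call. Unknown coverage limits every level.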
